A study of Mus musculus with 24 samples.

Results

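The cytosolic ribosomal protein genes encode the protein parts of the ribosome that works in the cytoplasm. They were taken from the deposited table by gene symbol, as the Rps (small subunit) and Rpl (large subunit) names together with Rplp0, Rplp1, Rplp2 and Rpsa, leaving out the Rps6 kinases and symbols of pseudogenes. This gave 83 of 17094 genes, 32 of the small and 51 of the large subunit. Of these, 82 had a position in the GENCODE annotation of mouse genome build GRCm38, all protein-coding and spread over 19 chromosomes. The members that reached 1 FPKM (fragments per kilobase of gene, scaled to the mapped fragments of the library) in at least 3 libraries numbered 81. Rpl3l, the muscle-enriched relative of Rpl3, lay between 0 and 0.08 FPKM, and Rpl32l, which had no position, between 0 and 0.57.

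Ribosomal proteins are assembled on ribosomal RNA in fixed proportions, so cells make them in matched amounts, and their mRNAs are among the most abundant in growing cells. In vertebrates many of these mRNAs begin with a C followed by a run of pyrimidines, the 5′ terminal oligopyrimidine (TOP) motif, through which mTORC1 signalling and the LARP1 protein adjust their translation together. A few members are paralogs that can take the place of a parent protein in the ribosome: Rpl22l1 that of Rpl22, Rps27l that of Rps27, Rpl39l that of Rpl39 and Rpl3l that of Rpl3. The Rpl22 protein is known to bind and lower the mRNA of Rpl22l1, and Rps27l is a known target of the transcription factor p53. Chondrocytes are secretory cells whose main products are the collagens and proteoglycans of cartilage matrix.

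RNA was sequenced from wild-type (WT) mouse primary chondrocytes, kept in the lower chamber of a transwell plate. They grew alone (normal culture) or together with primary dermal fibroblasts (co-culture), with no IL-1β or with 10 ng/ml IL-1β from 24 h after attachment, and were collected after 36 h or 72 h. IL-1β is an inflammatory cytokine. The 8 groups were thus untreated and IL-1β-treated normal cultures and untreated and IL-1β-treated co-cultures, each at 36 h and 72 h, with 3 libraries a group and 24 in all. The medium was DMEM/F12 plus ITS and 10% FBS for chondrocytes and alpha-MEM plus 10% FBS for fibroblasts, and that of the co-cultures is not named in the labels. The labels give no age for the animals and do not say that the replicates came from separate cultures or animals. The p-values therefore describe the variation among these libraries alone, and that variation may be technical. In bulk RNA, fewer cells of a type and less RNA per cell cannot be told apart.

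The columns summed to between 438242 and 506621 FPKM, libraries of 1 group correlated at 0.989 to 0.998, and the number of reads behind the values is unknown. Of 13 chondrocyte markers 12 were tested, with a summed level of 289 to 1148 FPKM and Matn1 below 1 FPKM in every library. The 10 dermal fibroblast markers summed to 2610 to 5451 FPKM, 10 myeloid markers to 51.6 to 178 and 10 skeletal muscle markers to 36.1 to 286, with Ptprc and Ttn below 1 FPKM everywhere. The endothelial markers summed to at most 2.39 FPKM, the keratinocyte markers to at most 0.2 and the erythroid marker in the table to at most 0.24.

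Replicate 3 of the IL-1β-treated libraries at 72 h was the highest of its group for 81 of 81 tested members in normal culture and for 81 of 81 in co-culture. Of all tested genes 38.0% and 41.9% were highest there. Replicate 1 was the lowest for 77 members in normal culture and for 67 in co-culture, where 39.8% and 35.5% of all tested genes were lowest. The median deviation of the members from their group mean, on the log2 scale, was -0.18, -0.03 and 0.23 for replicates 1 to 3 in normal culture and -0.11, -0.05 and 0.16 in co-culture. Other genes with a transcript under 1000 nt, 652 in number, deviated by a median of 0.15 and 0.13 in these replicates 3, genes of 1000 nt up to but under 2000 nt by 0.10 and 0.08, and genes with a transcript of 4000 nt or more, 3879 in number, by -0.08 and -0.08. Of the 81 members 52 had a transcript under 1000 nt, and the members were not split by length. Counts of members called without these libraries are given beside the results at 72 h under IL-1β. For fits that leave out a library no share of all tested genes is given, so their counts are not set against other genes.

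**Figure D1:**
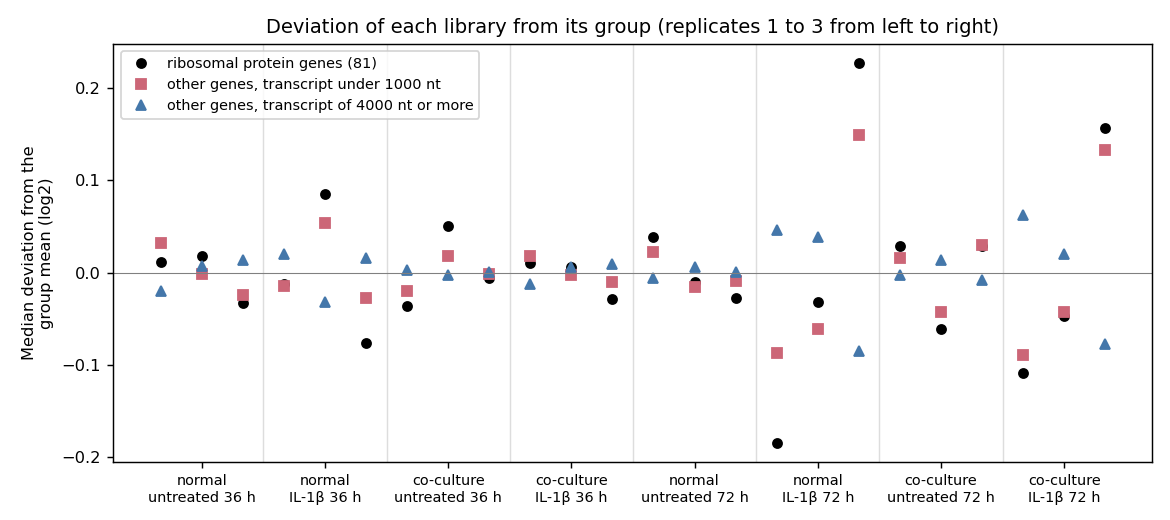
Median deviation of each library from its group mean on the log2 scale (vertical axis) for the 81 tested ribosomal protein genes (circles), other genes with short transcripts (squares) and other genes with long transcripts (triangles), by group (horizontal axis). In the IL-1β-treated groups at 72 h the circles and squares rise to 0.23 and 0.15 in replicate 3 while the triangles fall below 0.

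The ribosomal protein genes supplied between 13.5% and 18.0% of all FPKM in a library. In untreated normal culture the share was 16.9% ± 0.276 (SD, n = 3) at 36 h and 15.3% ± 0.247 at 72 h. Under IL-1β it was 15.8% ± 0.681 and 14.97% ± 1.55. In untreated co-culture it was 17.5% ± 0.435 at 36 h and 16.3% ± 0.387 at 72 h, and in IL-1β-treated co-culture 17.1% ± 0.24 and 15.98% ± 0.96. The 3 untreated normal libraries at 36 h all lay above the 3 at 72 h, and the untreated co-culture libraries likewise. The ranges of the IL-1β-treated groups at 72 h, 13.5% to 16.6% and 15.2% to 17.1%, overlapped with each other and with both untreated groups at 72 h. Mean shares were lower under IL-1β in each pair, but this direction depended on the scaling. As deposited, the mean sum fell from 74624.5 to 72808.9 FPKM in normal culture at 36 h. It rose from 67438.9 to 72175 in normal culture at 72 h. In co-culture it rose from 77974.7 to 80214.3 at 36 h and from 73807.5 to 77033.5 at 72 h. The ranges of these sums overlapped in each pair. With median-of-ratios scaling the mean rose in each pair, from 72617.6 to 74116.4 in normal culture at 36 h. The ratio of small to large subunit genes in summed FPKM had group means between 0.732 and 0.748.

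**Figure D2:**
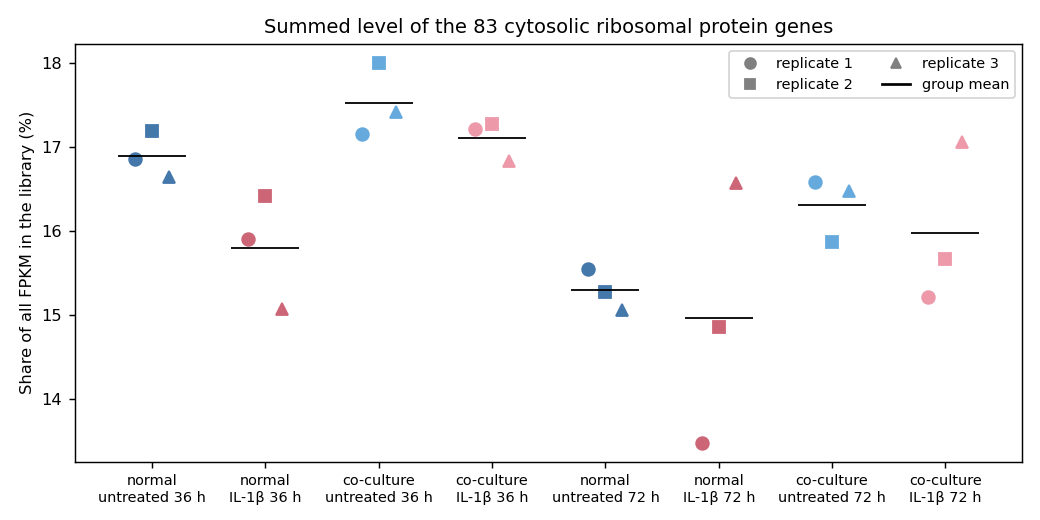
Summed FPKM of the 83 ribosomal protein genes as a percentage of all FPKM in each library (vertical axis, not starting at 0) by group (horizontal axis), with symbols for replicates 1 to 3 and a line at the group mean. Untreated libraries lie lower at 72 h than at 36 h in both cultures, and the IL-1β-treated groups at 72 h are the widest, from 13.5% to 16.6% in normal culture.

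Levels, compared per length, differed widely among tested members. The highest means over the 24 libraries belonged to Rps2, at the entry of the mRNA channel, with 2470.0 FPKM, and to Rpl12, Rpl23a, Rplp1 and Rpl10 with 1967, 1933, 1753 and 1746 FPKM. The lowest belonged to Rpl39l with 16.2 FPKM, Rps6 with 25.7, Rpl7l1 with 41.5, Rps15a with 103 and Rpl22 with 146. Rps6 is a core protein of the small subunit, so its low value beside the other core members stands out in the table. In the 878 bases of the Rps6 transcript, read in overlapping windows of 50 bases, 84.6% of the windows also occurred in the transcripts of other annotated genes. The same search found at least 1 shared window in 79 of 82 members, with a median of 43.9% of windows. Nothing in the labels says how the authors assigned reads that match several genes, so the levels of members with high shares, such as Rps27 with 98.6%, Rpl10a with 88.1%, Rpl3 with 85.6% and Rps2 with 71.3%, are uncertain. The share was 57.3% for Rpl22l1, 22.4% for Rps27l, 9.03% for Rpl7l1, 5.19% for Rpl22 and 0% for Rpl39l.

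The start of the transcript was examined because the members are known for the TOP motif. RefSeq promoter sequences of build GRCm38.p6 were matched for 61 of the 81 tested members, which had 72 annotated starts. The motif was searched on the gene's strand as a C at the annotated start followed by at least 4 bases that are each C or T. It was present at 13 of the 72 starts, 18.1%, against 2.25% of the 12403 starts of all tested genes, 2.51% of all 32851 starts in the RefSeq table and 0 of 75 starts of mitochondrial ribosomal protein genes, whose products work in another ribosome. Allowing the C within 5 bases of the annotated start gave 43.1% for the members, 22.7% for the mitochondrial ones and 19.5% for all tested genes. The windows below run from 10 bases before to 20 bases from the annotated start on, in lower case with the motif in capitals, for 2 parent or core genes with the motif at the start, for the 2 paralogs that changed most, and for Rpl7l1, where none was found. Counting the annotated start as position 1, the motif begins at position 4 in Rpl22l1 and at position 2 in Rps27l, which has another annotated start where none was found. They are Rps27 (chr3:90213629-90213658, minus strand), Rps6 (chr4:86857348-86857377, minus strand), Rpl22l1 (chr3:28805498-28805527, plus strand), Rps27l (chr9:66946076-66946105, plus strand) and Rpl7l1 (chr17:46782637-46782666, minus strand).
Rps27: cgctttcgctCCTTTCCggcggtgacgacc
Rps6: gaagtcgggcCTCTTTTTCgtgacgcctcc
Rpl22l1: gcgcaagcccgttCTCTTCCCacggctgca
Rps27l: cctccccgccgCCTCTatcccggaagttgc
Rpl7l1: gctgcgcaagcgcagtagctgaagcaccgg
A match describes letters at an annotated start, and a missing match says only that these letters are not in this window.

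Across the 8 groups most members kept within a narrow range. The ratio of the highest to the lowest group mean had a median of 1.24 over the 81 tested members, against 1.40 over 78 mitochondrial ribosomal protein genes and 1.60 over all 12178 tested genes. It was under 1.5 for 74 members, 91.4%, against 66.7% of the mitochondrial ones and 41.6% of all tested genes. It reached 2 for only 2 members, 2.47%, against 30.9% of all tested genes. The sets were not matched for level, and the part of level in this ratio was not tested. The members that reached a ratio of 2 are named next. They were Rpl22l1, whose group means differed 5.04-fold, and Rps27l, with 2.20-fold. With Rpl7l1, a relative of Rpl7, they were the 3 members whose profile over the groups lay farthest from the median profile of the members. Rpl22l1 (ENSMUSG00000039221) lies on the plus strand of chromosome 3 at 28805436 to 28807424, Rps27l (ENSMUSG00000036781) on the plus strand of chromosome 9 at 66946086 to 66949516, and Rpl7l1 (ENSMUSG00000063888) on the minus strand of chromosome 17 at 46773907 to 46782672. These positions span the whole gene.

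**Figure D3:**
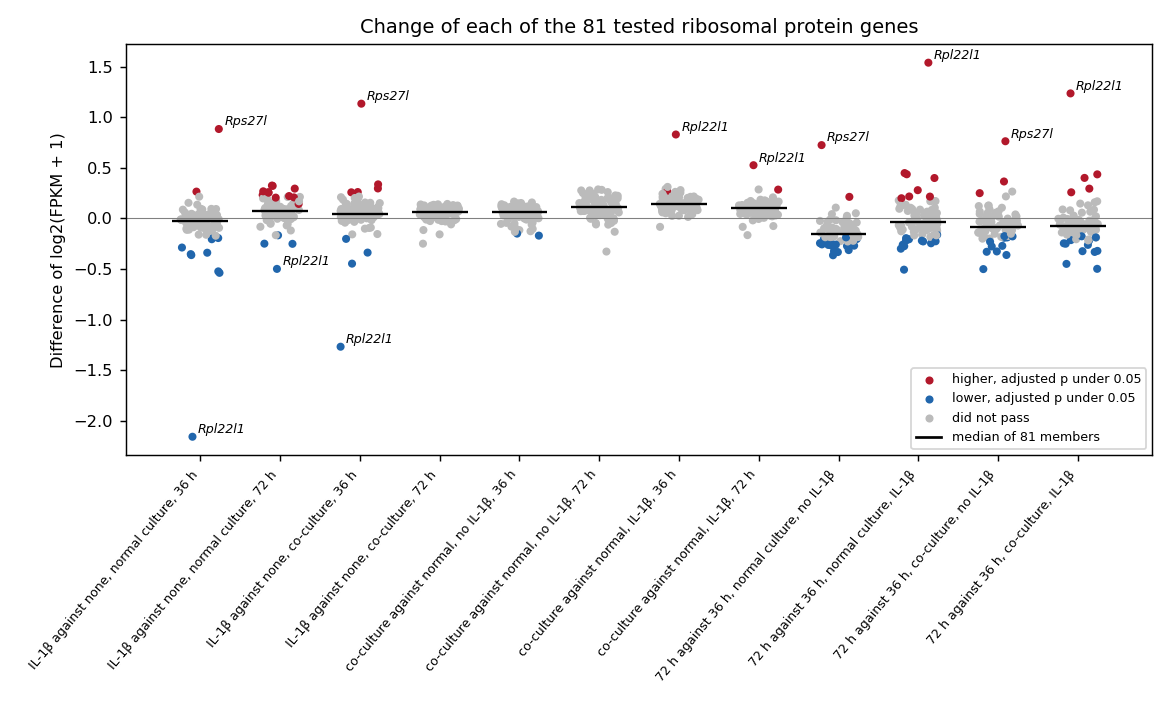
Difference of log2(FPKM + 1) of each of the 81 tested members (points, vertical axis) in 12 comparisons (horizontal axis), red or blue where the adjusted p was under 0.05, with a bar at the median of the members. Most points lie close to 0, and Rpl22l1 and Rps27l stand apart, Rpl22l1 down to -2.16 under IL-1β in normal culture at 36 h.

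IL-1β in normal culture at 36 h lowered Rpl22l1 and a few core genes, raised Rps27l and left most members within the spread. Changes are given as differences of log2(FPKM + 1) with their standard error (SE), from limma. A gene passed below 0.05 after Benjamini-Hochberg adjustment across the 12178 genes tested. Of the 81 tested members 2 rose and 10 fell, 14.8%, where 67.5% of all tested genes passed. The median change of the members was -0.02 against -0.09 over all tested genes. With the columns rescaled to equal sums 2 rose and 19 fell (68.5% of all tested genes passed), and with median-of-ratios scaling 6 rose and 6 fell (66.3%), so the balance of the smaller changes depended on the scaling. Equal sums moved the median of all tested genes from -0.09 to -0.15 here, and from -0.08 to -0.20 under IL-1β in normal culture at 72 h.

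Rpl22l1 had 303, 354 and 367 FPKM in the untreated libraries and 73.3, 78.8 and 74.7 FPKM under IL-1β. The groups were far apart, with the highest treated library at 78.8 and the lowest untreated one at 303 FPKM. The difference was -2.16 (SE 0.15, adjusted p = 4.01e-11 by limma with Benjamini-Hochberg adjustment), and it passed in each of 14 alternative fits. Its parent Rpl22 (ENSMUSG00000028936, chromosome 4, 152325742 to 152334071, plus strand) had 155, 162 and 157 FPKM without IL-1β and 146, 158 and 144 FPKM with it. Those ranges overlapped, and the difference of -0.08 did not pass (adjusted p = 0.302 by limma), although with equal sums it was -0.14 and did (adjusted p = 0.0221).

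Rps27l moved the other way. It had 188, 184 and 179 FPKM in the untreated libraries and 340.0, 351 and 326 FPKM under IL-1β, with no overlap. The difference was 0.88 (SE 0.056, adjusted p = 4.27e-12 by limma), and it passed in each of 14 alternative fits. Its parent Rps27, a zinc finger protein of the small subunit, had 1021, 984 and 891 FPKM without and 995, 1036 and 867 FPKM with IL-1β. The 2 sets of Rps27 values overlapped over nearly their whole range, with means of 966 ± 67.1 and 966 ± 88.1 FPKM (SD, n = 3).

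**Figure D4:**
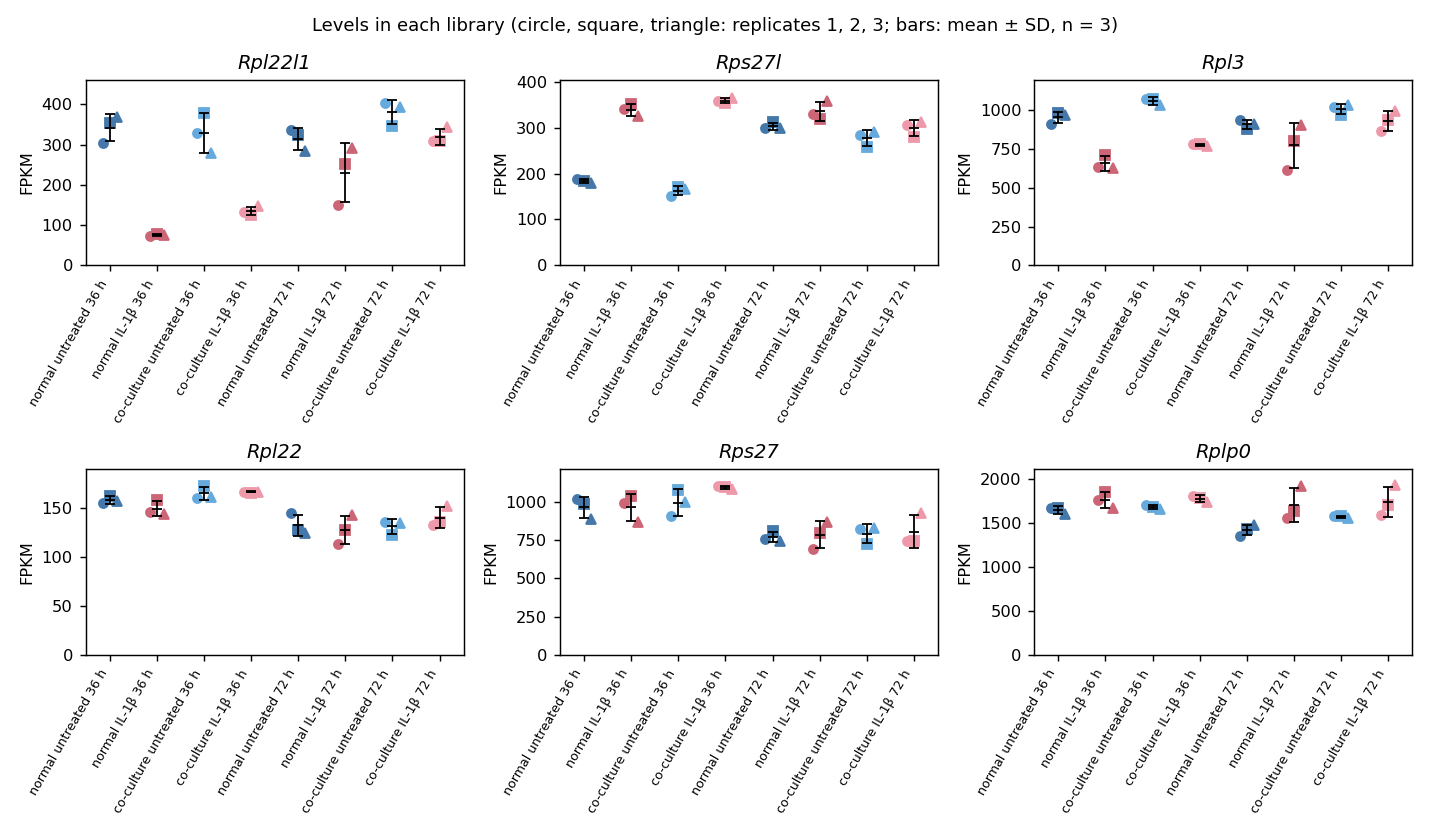
FPKM (vertical axes, from 0) of 2 paralogs, Rpl22l1 and Rps27l, their parents Rpl22 and Rps27, the core gene Rpl3 and the stalk gene Rplp0 in every library by group (horizontal axes), with the mean ± SD. Rpl22l1 drops to 75.6 FPKM and Rps27l rises to 339 FPKM under IL-1β in normal culture at 36 h, while Rpl22 and Rps27 overlap with their controls there.

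Rpl3, which helps to form the peptidyl transferase centre, had 913, 985 and 969 FPKM without IL-1β and 636, 713 and 628 FPKM with it. The difference was -0.54 (SE 0.09, adjusted p = 1.59e-05 by limma). Rpl10a, a protein of the L1 stalk, had 826, 820.1 and 781 FPKM against 547, 609.5 and 534 FPKM, a difference of -0.52 (SE 0.097, adjusted p = 5.81e-05). Neither pair of groups overlapped. Rps2 fell by 0.36, from 2425 ± 83.8 to 1886 ± 66.7 FPKM, Rps6 fell by 0.34 and Rpl7l1 fell by 0.35, from 41.5 ± 1.83 to 32.3 ± 0.821 FPKM (SD, n = 3). These 5 genes passed in each of 14 alternative fits. Rpl24, a protein at the bridge between the subunits, rose by 0.26, from 695 ± 50.5 to 834 ± 45.8 FPKM, and also passed in each. Rpl39l, Rps12, Rpl12 and Rpl14 fell by 0.29, 0.21, 0.19 and 0.17, and none of these 4 passed with median-of-ratios scaling (adjusted p = 0.0861, 0.151, 0.161 and 0.207 by limma).

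By role, the 4 tested genes listed as paralogs were Rpl22l1, Rps27l, Rpl39l and Rpl7l1, the last listed as a relative of Rpl7 by its name. Of these 1 rose and 3 fell, and among the 7 genes listed as parents Rpl3 alone passed. The P-stalk genes Rplp0, Rplp1 and Rplp2, which recruit elongation factors, had differences between -0.12 and 0.09 with none past the threshold. The same held for Rpl5 and Rpl11, which with 5S rRNA form a particle known to bind MDM2, at 0.09 and -0.04. None of the 10 members mutated in Diamond-Blackfan anaemia passed (differences between -0.11 and 0.22), nor did the 4 at the exit of the nascent peptide tunnel (-0.13 to 0.09). Of the 4 at the mRNA channel and decoding centre Rps2 passed.

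In co-culture at 36 h IL-1β again lowered Rpl22l1, Rpl3 and Rpl10a and raised Rps27l and Rpl24. Of the 81 members 5 rose and 4 fell, where 58.7% of all tested genes passed. With equal sums 4 rose and 9 fell (62% of all tested genes passed), and the median of the members turned from 0.05 to -0.03, while median-of-ratios scaling gave 9 and 3 (56.6%). With the compared groups fitted alone, which leaves out all other groups, 23 rose and 8 fell (66.5%). Rpl22l1 had 328, 379 and 279.9 FPKM in untreated co-culture and 133, 126 and 147 FPKM under IL-1β, a difference of -1.27 (SE 0.15, adjusted p = 3.44e-07 by limma). Rps27l had 151, 170.4 and 167 FPKM without and 358, 354 and 364 FPKM with IL-1β, a difference of 1.13 (SE 0.056, adjusted p = 9.08e-14). Both pairs of groups were without overlap. Rpl3 fell by 0.45 and Rpl10a by 0.34, and Rpl24 rose by 0.26, each in all 14 alternative fits. Rps2 fell by 0.20, a call lost in 5 of 14 alternative fits: with median-of-ratios scaling (adjusted p = 0.0796 by limma), with no filter, and without untreated replicate 1, untreated replicate 2 or treated replicate 3 (adjusted p up to 0.122). Rps29 and Rps19, both small subunit proteins, rose by 0.34 and 0.30. Rps29 no longer passed without untreated replicate 1 or treated replicate 2 (0.20 and 0.29), and Rps19 without untreated replicate 3 or treated replicate 1 (0.26 and 0.25). The chondrocyte marker sum went from 869 to 896 FPKM down to 308 to 317 in this comparison (12 of 12 lower), the fibroblast sum from 4855 to 4879 down to 4346 to 4425, and the myeloid sum from 51.6 to 56.1 up to 74.0 to 85.7, and their part was not tested.

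With the values as deposited, the effect of IL-1β on 2 members differed between the cultures at 36 h. The interaction of co-culture and IL-1β was 0.89 for Rpl22l1 (SE 0.219, adjusted p = 0.0139 by limma) and 0.26 for Rpl7l1 (SE 0.0626, adjusted p = 0.0127), where 6.96% of all tested genes passed. The fall under IL-1β was thus smaller in co-culture for both. For Rpl22l1 the cultures differed under IL-1β, by 0.83, while Rpl7l1 did not pass there. Without IL-1β Rpl7l1 was 0.15 lower in co-culture, a call lost in 5 of 14 alternative fits. Rpl7l1 had 37.8, 36.8 and 37.4 FPKM in untreated co-culture and 34.1, 34.5 and 36.1 FPKM under IL-1β, without overlap, and the difference of -0.09 did not pass (adjusted p = 0.0728). Both interactions passed in each of 20 alternative fits. That of Rps27l was 0.25 and did not pass (adjusted p = 0.0584 by limma). With equal sums it was 0.24 and passed (adjusted p = 0.0315 by limma). With median-of-ratios scaling it was 0.23 and did not (adjusted p = 0.0802 by limma). At 72 h no interaction passed among the members by limma, adjusted or at an unadjusted p under 0.05, where 3.11% of all tested genes passed.

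At 72 h Rpl22l1 and Rps27l differed less under IL-1β than at 36 h, and the number of members called depended on the scaling. In normal culture 11 members rose and 4 fell, where 63.4% of all tested genes passed. With equal sums 3 rose and 14 fell (69.9% of all tested genes passed), with median-of-ratios scaling 26 rose and 1 fell (61.7%), and with the compared groups fitted alone 1 rose and none fell (50.6%), so neither the number nor the direction of the small changes held over the scalings. The count of 15 became 34 without treated replicate 1, and 9 and 8 without untreated replicates 1 and 3. Without replicate 3 of both treated groups at 72 h, 3 rose and 10 fell, and Rps27l no longer passed (0.09). Rpl22l1 had 335.9, 323 and 284 FPKM without IL-1β and 149, 251 and 290.4 FPKM with it, so the groups overlapped at replicate 3. Its difference of -0.50 (adjusted p = 0.00776 by limma) became -0.21 without replicate 1 of the treated group (adjusted p = 0.0855) and did not pass in the compared groups alone (adjusted p = 0.0795). Rps27l had 299, 312 and 299 FPKM without and 329, 319 and 359 FPKM with IL-1β. The treated values did not overlap with the untreated ones, but the difference of 0.14 became 0.02 with equal sums (adjusted p = 0.711). Rplp2 of the P-stalk rose by 0.32, from 727 ± 21.3 to 915 ± 137 FPKM (SD, n = 3), and passed in each of 15 alternative fits. The chondrocyte marker sum was 1079 to 1148 FPKM without and 295 to 303 FPKM with IL-1β (12 of 12 lower), the muscle sum 36.1 to 39.3 and 72.1 to 83.6 (9 of 9 higher), and their part in these changes was not tested.

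In co-culture at 72 h no member passed under IL-1β by limma, adjusted or at an unadjusted p under 0.05, where 49.1% of all tested genes passed. With equal sums 4 members fell (59% of all tested genes passed), among them Rpl22l1, and with median-of-ratios scaling 2 rose (45.7%), among them Rps27l. Rpl22l1 had 402, 347 and 393 FPKM in untreated and 308, 308 and 343 FPKM in treated co-culture. All 3 treated values lay below the untreated ones, with a difference of -0.25 (adjusted p = 0.191). Rps27l had 283, 258 and 290.2 FPKM against 306, 279.8 and 312 FPKM, which overlapped. The count of 0 became 3 without treated replicate 1 and 1 without treated replicate 2 or 3. The chondrocyte marker sum was 1050.0 to 1117 FPKM in untreated and 289 to 333 FPKM in treated co-culture (12 of 12 lower), and the muscle sum 44.3 to 55.4 and 84.6 to 111 (9 of 9 higher).

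The effect of IL-1β was compared directly between the times, a comparison added after the data were seen. In normal culture 8 members differed, 7 with a higher and 1 with a lower value at 72 h than at 36 h, where 45.4% of all tested genes passed, and with equal sums 6 and 3 (43.5%). Rpl22l1 differed by 1.66 (SE 0.219, adjusted p = 2.8e-06 by limma) and Rps27l by -0.74 (SE 0.0788, adjusted p = 1.37e-07). In co-culture these 2 members differed and no other, by 1.02 (adjusted p = 0.00122) and -1.02 (adjusted p = 1.92e-09), where 28.8% of all tested genes passed, and with equal sums 4 were higher and 1 lower (26.9%). All 4 of these differences, and that of Rps2 in normal culture (0.39), passed in each of 19 alternative fits. Without replicate 1 of the IL-1β-treated normal cultures at 72 h the count in normal culture was 30, and without their replicate 3 it was 5. In co-culture it was 5 without treated replicate 1 at 72 h.

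Rpl22l1 was higher in co-culture than in normal culture under IL-1β, and few other members passed in the comparison of the cultures. Under IL-1β at 36 h, Rpl22l1 was 0.83 higher in co-culture than in normal culture (SE 0.15, adjusted p = 0.00117 by limma), with 126 to 147 against 73.3 to 78.8 FPKM and no overlap, in each of 14 alternative fits. Rpl14, a large subunit protein, was 0.27 higher (adjusted p = 0.0193), with 605, 606 and 625 against 528, 528 and 471 FPKM, and lost its call in 3 of the fits without 1 library (0.21 at the lowest). These were the 2 members called, where 10.6% of all tested genes passed, and Rpl22l1 alone passed without co-culture replicate 2 or 3 or normal replicate 3, while 4 passed without normal replicate 2. The median of the members was 0.15 against 0.01 for all tested genes. In 46 of 81 members every co-culture library lay above every normal one and in none below, where 17.4% and 15.2% of all tested genes did. With the compared groups fitted alone 22 members were called, all higher (13.5% of all tested genes passed).

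Without IL-1β at 72 h no member passed by limma, where 3.4% of all tested genes did. Without normal replicate 3 the count was 1. At an unadjusted p under 0.05 by limma there were 25 members. The share of all tested genes at that unadjusted threshold is not given, so the 25 are not set against other genes. With the compared groups alone 32 members were higher and 1 lower in co-culture (10.9% of all tested genes passed). Equal sums gave 1 higher and 2 lower (3.52%) and median-of-ratios scaling called 1 (3.34%). In 38 members all co-culture libraries lay above the normal ones and in 2 below, where 15.4% and 18.3% of all tested genes did, and the median of the members was 0.11 against -0.01. At 36 h without IL-1β, Rpl7l1 was 0.15 and Rps27l 0.17 lower in co-culture (adjusted p = 0.0239 and 0.0421 by limma), where 15.5% of all tested genes passed. Neither passed with median-of-ratios scaling (adjusted p = 0.0557 and 0.0886), with equal sums 1 member was higher and 2 were lower (14.4% of all tested genes passed), and with the compared groups alone 13 were higher and 2 lower (25.4%). Leaving out any of the 6 libraries in turn left 0 or 1 member called.

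Under IL-1β at 72 h, Rpl22l1 was 0.53 higher in co-culture (adjusted p = 0.0298 by limma), with 308, 308 and 343 against 149, 251 and 290.4 FPKM and no overlap. Rpl3 was 0.28 higher (adjusted p = 0.0402), with 868, 935 and 995 against 615, 801 and 907 FPKM, which overlapped. These were the 2 members called, where 12.5% of all tested genes passed, and equal sums gave 4 higher and 1 lower (9.89%). Same-numbered libraries deviated together in this comparison alone, and with the replicate number as a block within each time 3 members were higher and 1 lower (15.4% of all tested genes passed). With the compared groups alone neither Rpl22l1 (adjusted p = 0.408) nor Rpl3 (adjusted p = 0.484) passed, nor did they with the block added (adjusted p = 0.142 and 0.138). Without replicate 3 of the treated normal cultures the count was 35, and without co-culture replicate 3 it was 1. Without co-culture replicate 2 or normal replicate 1 no member passed by limma, and in the latter fit the difference of Rpl22l1 was 0.24 (adjusted p = 0.193).

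From 36 h to 72 h in untreated normal culture 21 of the 81 ribosomal protein genes fell and 2 rose, where 58.4% of all tested genes passed. The share of members that fell, 25.9%, was near that of all tested genes, 25.3%, and the share that rose was 2.47% against 33.1%. Of the 78 mitochondrial genes 33 rose and none fell. The medians were -0.15 for the members, 0.14 for the mitochondrial genes and 0.03 for all tested genes. In 45 members every library at 72 h lay below every library at 36 h, where 29.8% of all tested genes did. Equal sums gave 33 lower and 2 higher (56.9% of all tested genes passed), median-of-ratios scaling 30 and 2 (57.6%), and the compared groups alone 44 and 2 (63.6%). The count of 23 became 14 without replicate 3 at 72 h and 15 without replicate 2 of either time. Over the same interval the summed chondrocyte markers went from 791 to 822 FPKM up to 1079 to 1148, with 4 of 12 higher and 4 lower. The fibroblast markers went from 5238 to 5451 FPKM down to 2810 to 2909, the muscle markers from 201 to 232 down to 36.1 to 39.3, and the myeloid markers from 52.8 to 61.4 up to 99.7 to 106. Of these lists 7 of 10, 9 of 9 and 0 of 9 tested genes were lower, and their part in the fall was not tested.

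The members that fell included Rpl28 (-0.36), Rpl31 at the tunnel exit (-0.33), Rps27 (-0.32), Rps7 (-0.31) and Rpl22 (-0.26). Rpl28 had 1360.3, 1414 and 1332 FPKM at 36 h and 968, 1090.1 and 1138 at 72 h, with no overlap. Rpl28, Rps27 and Rpl22 passed in each of 13 alternative fits, and Rpl31 in all but the fit without replicate 1 at 36 h (-0.19). Rplp0 and Rpl5 fell by 0.21 and 0.20, calls that did not hold without replicate 1 at 72 h for Rplp0, nor without replicate 1 at 36 h or replicate 2 at 72 h for Rpl5. Both members that rose were the relatives Rps27l and Rpl7l1. Rps27l went from 183 ± 4.58 to 303 ± 7.61 FPKM (SD, n = 3), a difference of 0.72 (SE 0.056, adjusted p = 2.48e-10 by limma), and Rpl7l1 from 41.5 ± 1.83 to 48.3 ± 0.8 FPKM, a difference of 0.21 (SE 0.044, adjusted p = 0.000283).

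In untreated co-culture 11 members fell and 3 rose from 36 h to 72 h, where 61.5% of all tested genes passed, and with equal sums 31 fell and 4 rose (58.9%). The count of 14 became 9 and 8 without replicates 2 and 3 at 36 h. Rps27l rose by 0.76, Rpl7l1 by 0.37 and Rps2 by 0.25. Rpl23, a large subunit protein, had 184, 163 and 192 FPKM at 36 h and 124, 123 and 131 FPKM at 72 h, a difference of -0.50 (SE 0.11, adjusted p = 0.000356 by limma) with no overlap. Rpl5 fell by 0.36, Rpl22 by 0.33 and Rps27 by 0.33. These 4 passed in each of 13 alternative fits. The fibroblast marker sum went from 4855 to 4879 FPKM down to 3058 to 3206, the muscle sum from 195 to 218 down to 44.3 to 55.4 (9 of 9 lower) and the myeloid sum from 51.6 to 56.1 up to 96.8 to 107 (7 of 9 higher), and their part was not tested.

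Under IL-1β the paralog Rpl22l1 rose with time, by 1.54 in normal culture (75.6 ± 2.87 to 230.2 ± 73 FPKM) and by 1.24 in co-culture (135 ± 10.4 to 319.8 ± 20.2 FPKM; SD, n = 3). In normal culture 8 members rose and 12 fell, where 69.1% of all tested genes passed, and equal sums gave 5 and 28 (67%). In co-culture 5 rose and 12 fell, where 64.3% passed, and equal sums gave 5 and 29 (62%). Rpl39l rose by 0.45 and 0.44, Rpl7l1 by 0.40 in both, and Rps2 by 0.44 and 0.29. Rpl23 fell by 0.51 and 0.50 and Rps27 by 0.30 and 0.45. Rps27l, already high at 36 h, fell by 0.26 in co-culture. Rpl22l1, Rpl39l, Rpl7l1, Rps2 and Rpl23 passed in each of 13 alternative fits in both cultures, and Rps27 did in co-culture. With replicate 3 of the treated group at 72 h left out, the counts of members called were 35 in normal culture and 29 in co-culture. In normal culture the count was 13 without replicate 2 of either time. The share of all tested genes that passed in these fits is not given, so a shift of all genes alike is not told apart. Between the times the fibroblast marker sum went from 4288 to 4641 FPKM down to 2610 to 2781 in normal culture and from 4346 to 4425 down to 2952 to 3029 in co-culture, and its part was not tested.

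The genes that build and use ribosomes were read in the same fits. For IL-1β against none in normal culture at the earlier time, 41.5% of all tested genes fell and 25.9% rose, with a median of -0.09, and the lists are to be read against these shares. Among 48 ribosome assembly and nucleolar factors, IL-1β at 36 h in normal culture lowered 45 and raised 2, with a median of -0.52. Nop56 and Nop58, core proteins of the particles that methylate rRNA, fell by 1.36 and 1.23, and Dkc1, the rRNA pseudouridine synthase, by 1.09. Nop56 had 46.3, 41.1 and 43.3 FPKM without and 15.3, 16.7 and 17.2 FPKM with IL-1β. Of 14 tested RNA polymerase I genes 10 fell and 1 rose (median -0.27; 8 and 2 with median-of-ratios scaling), led by Polr1b at -0.80. Of 13 dedicated chaperones of ribosomal proteins and nascent chain factors 10 fell and 2 rose (median -0.40), led by Heatr3, which escorts Rpl5, at -1.003.

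Of 19 translation factors and other mRNAs of the TOP class 7 fell and 2 rose (median -0.07), and equal sums gave 9 and 0 and median-of-ratios scaling 6 and 3. In it, Hnrnpa1, an RNA-binding protein, fell by 1.28 and Npm1, nucleophosmin, by 0.70. Of 30 other initiation and termination factors 25 fell and 1 rose (median -0.31), with Eif5 at -0.83 and Eif4a2 at 0.55. Of 18 genes of the mTORC1 pathway and its TOP regulators 11 fell and 3 rose (median -0.27), 14 of 18 where 67.5% of all tested genes passed. Myc, which drives ribosome production, fell by 0.83 and Ddit4, an mTORC1 inhibitor, rose by 0.65. Of 8 genes around p53 5 rose and 3 fell (median 1.20), so the list did not move in 1 direction. The p53 targets Cdkn1a, Ccng1 and Mdm2 rose by 2.21, 1.87 and 1.59. The 3 that fell included Trp53 itself, by 0.66, and the other falls lay among Mdm4, Zmat3, Sesn1 and Phlda3.

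Marker sums also moved under IL-1β in normal culture at 36 h. The chondrocyte sum went from 791 to 822 FPKM down to 304 to 322, with 11 of the 12 tested markers lower. The fibroblast sum went from 5238 to 5451 down to 4288 to 4641 (4 of 10 lower, 4 higher), the myeloid sum from 52.8 to 61.4 up to 75.8 to 87.0 (5 of 9 higher) and the muscle sum from 201 to 232 up to 274 to 286 FPKM (4 of 9 higher). Their part in the changes of the ribosomal protein genes was not tested.

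From 36 h to 72 h in untreated normal culture 38 of the 48 assembly factors rose and none fell (median 0.27), led by Mrto4 at 0.56, where 33.1% of all tested genes rose and 25.3% fell, with a median of 0.03. Of the 30 other initiation and termination factors 23 rose and 1 fell, with Eif5a at 0.58, and of the 14 RNA polymerase I genes 7 rose and none fell. The TOP-class list split, with 5 higher and 8 lower, where Eif3f and Eif3e fell by 0.37 and 0.34 and Eef1d rose by 0.39. Outside the symbol rule, Fau, whose product includes a small subunit protein, fell by 0.31 and Rpl36al, a relative of Rpl36a, rose by 0.28.

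**Figure D5:**
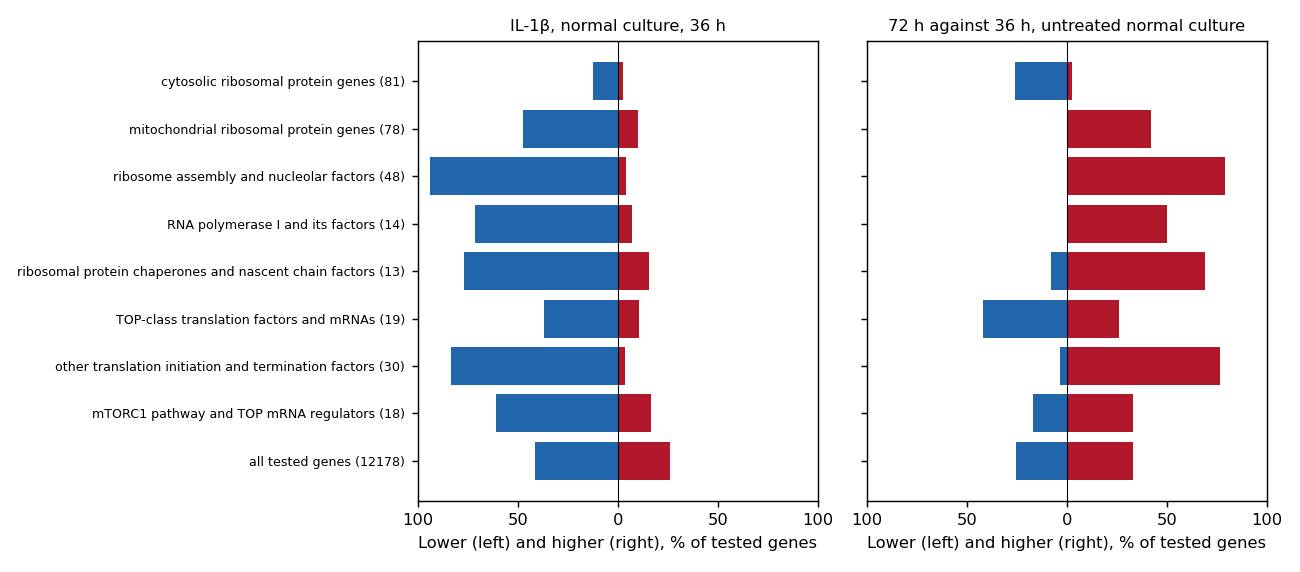
Percentage of the tested genes of each list that passed as lower (blue, to the left) and higher (red, to the right) at an adjusted p under 0.05, for IL-1β in normal culture at 36 h and for 72 h against 36 h in untreated normal culture, with the number tested in brackets. The bar of the cytosolic ribosomal protein genes is short beside that of the assembly factors (45 of 48 lower) on the left, and on the right it points the other way from the assembly factors and the mitochondrial ribosomal protein genes.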

How the data were processed

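The authors deposited FPKM values of 17094 genes for poly(A)-enriched RNA in 24 libraries, on genome build GRCm38 per the submitters' processing notes. Aligner, counter, annotation and filters are not given in the sources used here. Genes with at least 1 FPKM in at least 3 libraries (12178) were transformed to log2(FPKM + 1), which understates the change of low genes, and compared with limma (version 3.58.1, R version 4.3.3) using a mean-variance trend. The model held a mean for each of the 8 groups (16 residual degrees of freedom), and p-values were adjusted by Benjamini-Hochberg over the tested genes. The procedure was tested on simulated data with errors drawn independently for each gene and library. That test therefore does not cover libraries in which many genes deviate together, such as the replicates 3 under IL-1β at 72 h. Positions and transcripts came from GENCODE vM21 (release 21) and start sequences from RefSeq GRCm38.p6, and tables and figures were made with Python 3.11.15, pandas 2.3.3 and matplotlib 3.10.9.

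Depth per sample is unknown, so no counting interval is given. The comparisons were IL-1β against none, co-culture against normal culture, 72 h against 36 h, and the interaction at each time. Members are named by role, by the largest changes past the threshold without overlap (up to 3 a direction and comparison), by the 5 highest and 5 lowest levels, and by the 3 largest distances from the median profile. From each pathway list up to 3 genes a direction are named. The list of ribosomal genes outside the symbol rule is not reported here as a whole. The members, lists and rules were chosen with earlier results of these data known. Alternatives were equal column sums, median-of-ratios scaling, a pseudocount of 0.1, no filter, a filter at 5 FPKM, the compared groups alone, a replicate block (1 for all libraries, or 1 per time), and each library omitted in turn. Added after the data were seen were the difference of the IL-1β effect between the times, leaving out replicate 3 of both IL-1β-treated groups at 72 h, and the compared groups with the block. Same-numbered libraries deviated together, with every correlation of deviations over 0.1, for co-culture against normal culture under IL-1β at 72 h only (0.364, 0.179 and 0.577), and the pairing comes from these values, not from the labels.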

Additional observations from a re-analysis of the deposited data

Results flagged for a closer look

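Members are given here because a test of the difference itself passed (limma, Benjamini-Hochberg adjusted over 12178 genes). The effect of IL-1β at 36 h differed between co-culture and normal culture for Rpl22l1 by 0.89 (adjusted p = 0.0139) and for Rpl7l1 by 0.26 (adjusted p = 0.0127) on the log2 scale. In normal culture the effect of IL-1β differed between 72 h and 36 h for Rpl22l1 by 1.66 (adjusted p = 2.8e-06), Rps27l by -0.74 (1.37e-07), Rps2 by 0.39 (0.00616) and Rps9 by 0.38 (0.0165). The same difference was 0.19 for Rpl7l1 (adjusted p = 0.0192), 0.40 for Rpl10a (0.0201), 0.34 for Rpl12 (0.0203) and 0.33 for Rplp2 (0.0482). In co-culture it was 1.02 for Rpl22l1 (adjusted p = 0.00122) and -1.02 for Rps27l (1.92e-09). Replicate 3 of the IL-1β-treated normal cultures at 72 h was the highest of its group for all 81 tested members and for 38.0% of all tested genes. Without that library 5 members differed in normal culture in place of 8. Of 19 alternative fits, the difference of Rplp2 was lost in 9 (7 of them without 1 library, adjusted p up to 0.161 by limma), that of Rpl7l1 in 4 (adjusted p up to 0.0941) and that of Rpl10a in 3 (adjusted p up to 0.0653). The fits without 1 library that lost Rpl7l1 left out treated replicate 3 at 72 h or untreated replicate 1 at 36 h, and those that lost Rpl10a left out treated replicate 3 of either time. For Rplp2 they were those 2 treated libraries, untreated replicate 2 or 3 at 36 h and each untreated library at 72 h. Rps9 and Rpl12 were not followed through the alternatives.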

How the results depend on the processing

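A set of the named members was followed through the alternatives, without Rps7, Rps9, Rps12 and Rpl12. With a pseudocount of 0.1 or a filter at 5 FPKM, all 84 changes of the followed members past the threshold still passed. Lost were 7 with equal sums, 9 with median-of-ratios scaling, 11 with no filter, 20 with the compared groups alone and 1 with each of the 2 replicate blocks, 3 of 12 without both replicates 3 and 2 of 2 with the compared groups and the block. Over the fits without 1 library, 86 of 564 tests of these changes no longer passed. None of these followed changes reversed. The median of the members under IL-1β in co-culture at 36 h reversed with equal sums, from 0.05 to -0.0276. Other small medians also changed sign: with equal sums under IL-1β at 72 h in normal culture (0.07 to -0.05) and co-culture (0.07 to -0.02) and in the 72 h interaction (-0.02 to 0.01), without both replicates 3 in the same 2 comparisons of IL-1β (-0.05 and -0.01), with median-of-ratios scaling under IL-1β in normal culture at 36 h (-0.02 to 0.04), and in 12 of the fits without 1 library. The read depth behind each FPKM value is unknown, so which small changes it limits cannot be said, and with 3 libraries a group the spread estimate rests on all 8 groups. Unless stated, the cause of a shift was not tested.

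For many counts in this section the share of all tested genes that passed in the same fit is not given. Such counts describe how the number called depends on the fit and are not results about the members. The counts of members called that moved by more than 1.5 times are these. With equal sums they were, for 72 h against 36 h, 35 in untreated normal culture, 33 in IL-1β-treated normal culture, 35 in untreated co-culture and 34 in IL-1β-treated co-culture. Under IL-1β they were 21 in normal culture at 36 h and 4 in co-culture at 72 h, for co-culture against normal culture 4 under IL-1β at 36 h, 5 under IL-1β at 72 h and 3 untreated at 72 h, and 5 for the difference of the IL-1β effect in co-culture. With median-of-ratios scaling the effect of IL-1β at 72 h gave 27 in normal culture and 2 in co-culture, and the others were 0 and 1 for untreated co-culture against normal culture at 36 h and 72 h, and 25 for 72 h against 36 h in untreated co-culture. With no filter they were 9 for that last comparison, 1 for untreated co-culture against normal culture at 36 h and 0 under IL-1β at 72 h, where the filter at 5 FPKM gave 4.

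With the compared groups alone, the counts under IL-1β were 1 in normal culture at 72 h, 31 in co-culture at 36 h and 1 in co-culture at 72 h. For co-culture against normal culture they were 15 and 33 untreated at 36 h and 72 h, and 22 and 0 under IL-1β. For 72 h against 36 h they were 46 in untreated normal culture, 6 in IL-1β-treated normal culture and 37 in untreated co-culture. The interaction at 36 h gave 4, and the change of the IL-1β effect between the times 4 (normal culture) and 5 (co-culture). Without replicate 3 of both IL-1β-treated groups at 72 h, co-culture against normal culture under IL-1β at 72 h gave 8, and treated against untreated co-culture at 72 h gave 1.

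A replicate block over all libraries moved no count by more than 1.5 times. A replicate block within each time gave 5 and 4 for co-culture against normal culture under IL-1β at 36 h and 72 h, 4 for the untreated cultures at 72 h and 1 for treated against untreated co-culture at 72 h. The compared groups with the block gave 0 for co-culture against normal culture under IL-1β at 72 h, the comparison whose same-numbered libraries deviated together. A block within each time could not be fitted for 72 h against 36 h, to which it is tied, and was not run for the difference of the IL-1β effect.

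Leaving out each library in turn gave, under IL-1β, 8 to 12 members in normal culture at 36 h, 8 to 34 at 72 h (34 without treated replicate 1), 6 to 11 in co-culture at 36 h and 0 to 3 at 72 h. Co-culture against normal culture gave 0 to 1 untreated at 36 h, 0 to 1 at 72 h, 1 to 4 under IL-1β at 36 h and 0 to 35 at 72 h. For 72 h against 36 h the range was 14 to 21 in untreated normal culture, 13 to 35 in IL-1β-treated normal culture, 8 to 13 in untreated co-culture and 13 to 29 in IL-1β-treated co-culture. The interaction gave 2 to 3 at 36 h and 0 to 0 at 72 h, and the change of the IL-1β effect between the times 5 to 30 (normal culture) and 2 to 5 (co-culture).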

Other observations

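Rpl39l, the paralog of the tunnel protein Rpl39 that is known from testis, was measured in every library, between 10.8 and 21.8 FPKM, and none of its windows of 50 bases occurred in another annotated gene. Its parent Rpl39 had a mean of 754 FPKM. Rps15a, a core protein of the small subunit, had a mean of 103 FPKM. The GENCODE transcript taken for it here measured 5179 nt, against a median of 882 nt over the members. The length used by the authors for its FPKM is not known, and the part of length in its level was not tested. Among the members with the motif at the annotated start, Rps6, Rps27 and Rpl28 differed in level from 25.7 to 897.5 and 1356 FPKM.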
